A study of Mus musculus with 25 samples.

Results

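Interferon-stimulated genes are the genes that cells switch on when interferon binds its receptors. The 47 genes described here were chosen by symbol, and all 47 of 47 were found, each in 1 row of a table of 24984 mouse genes. They comprise sensors of viral nucleic acid (Ddx58, Ifih1, Dhx58 and Zbp1), transcription factors of the response (Irf1, Irf7, Irf9 and Stat2) and 2 of its brakes (Socs1 and Usp18). They also comprise the ubiquitin-like modifier Isg15 with the ligases and ADP-ribosyltransferases Trim21, Trim25, Parp9 and Parp14, the Ifit genes Ifit1, Ifit2 and Ifit3, and the oligoadenylate synthetase genes Oas1a, Oas1g, Oas2, Oas3, Oasl1 and Oasl2. Other antiviral effectors were Mx1, Mx2, Rsad2, Cmpk2, Isg20, Eif2ak2, Bst2, Ifitm1, Ifitm2 and Ifitm3. The GTPases were Gbp2, Gbp3, Gbp5, Gbp6, Gbp7, Iigp1, Irgm1, Irgm2 and Igtp, and the list closed with Ifi35, Ifi44, Xaf1 and Rtp4.

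RNA was sequenced from 25 libraries in 7 groups. BMEL cells are a line of bipotential hepatic progenitors, isolated from embryonic liver of a C57B/6_C3H mouse and clonally derived. BMEL WT (3 cultures, labelled as empty vector), RasLOW (3 cultures) and RasHIGH (3 cultures) grew exponentially on collagen-coated plates. The Ras cells carried H-Ras G12V in a bicistronic vector with Venus or mCherry and were sorted by fluorescence into 2 populations whose transgene levels overlap, so that they form a graded pair rather than separate doses. The other 16 libraries came from 4 athymic nude mice, which lack a thymus and hence most T cells but keep macrophages, NK cells and B cells, and into whose liver BMEL-Ras cells had been injected. From each mouse, a liver tumour and a peritoneal tumour were dissociated and sorted into Venus-positive tumour cells and negative stromal cells, giving liver and peritoneal tumour cells and liver and peritoneal stromal cells (4 libraries each). The ages of the mice and the Ras population behind each sequenced tumour are not given in the sources used here.

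Type I interferons (alpha and beta) bind the receptor of Ifnar1 and Ifnar2, and the kinases Jak1 and Tyk2 then lead to a complex, with Stat2 and Irf9 among its parts, that binds the interferon-stimulated response element (ISRE) in promoters. Interferon gamma acts through Ifngr1 and Ifngr2 and the gamma-activated site (GAS), and several genes, Irf1 and the GTPases among them, respond strongly to it. In liver tumours, macrophages, dendritic cells and endothelial cells are usual carriers of the response, while epithelial cells keep part of it running at low tonic levels.

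The promoters were searched for the letters of these 2 elements, which does not tell which interferon drives a gene. Promoters read from the RefSeq promoter table (build GRCm38.p6, 250 bases before to 50 bases after each start) covered 36 of the 47 genes. No promoter was read for the other 11, Dhx58, Zbp1, Usp18, Parp9, Parp14, Oas2, Mx1, Mx2, Gbp6, Iigp1 and Rtp4. Each had no entry under its symbol or lay on a chromosome that the search left out, although the figures for all genes include that chromosome. The ISRE core, GAAA followed by any 2 bases and GAAA, was searched on both strands, and the GAS, TTC followed by any 3 bases and GAA, which reads alike on both, once; overlapping matches were counted, and the 2 motifs may overlap each other. An ISRE core lay in at least 1 promoter of 23 of the 36 genes (63.9%), against 3.99% of all 27025 genes in that table. A GAS lay in 12 of the 36 (33.3%, against 9.55% of all genes), 8 genes held both and 9 held neither. The 9 windows shown here run from 110 bases before the start to the base before it, 5′ to 3′ on the gene's strand, with the bases of matched motifs in capitals. They were chosen as examples of an ISRE alone (Isg15, Ifit1, Gbp2, Irgm1 and Oas1g), of a GAS alone (Irf1) and of both (Irgm2, Igtp and Oas1a).
Isg15, chr4:156200819-156200928, minus strand: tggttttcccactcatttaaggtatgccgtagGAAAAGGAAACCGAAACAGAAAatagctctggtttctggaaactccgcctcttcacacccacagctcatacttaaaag
Ifit1, chr19:34640779-34640888, plus strand: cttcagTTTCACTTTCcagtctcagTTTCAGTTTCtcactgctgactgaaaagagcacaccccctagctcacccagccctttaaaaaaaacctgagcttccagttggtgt
Gbp2, chr3:142620553-142620662, plus strand: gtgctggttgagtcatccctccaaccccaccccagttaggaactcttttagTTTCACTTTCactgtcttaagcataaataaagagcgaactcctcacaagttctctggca
Irgm1, chr11:48871421-48871530, minus strand: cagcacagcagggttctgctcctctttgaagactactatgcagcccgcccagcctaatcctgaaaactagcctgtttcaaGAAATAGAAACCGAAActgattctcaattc
Irf1, chr11:53769904-53770013, plus strand: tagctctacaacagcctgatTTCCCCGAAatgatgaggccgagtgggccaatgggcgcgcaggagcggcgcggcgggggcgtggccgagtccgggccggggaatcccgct
Irgm2, chr11:58214867-58214976, plus strand: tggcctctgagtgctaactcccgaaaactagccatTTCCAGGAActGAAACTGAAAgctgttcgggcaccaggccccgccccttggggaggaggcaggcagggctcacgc
Igtp, chr11:58199446-58199555, plus strand: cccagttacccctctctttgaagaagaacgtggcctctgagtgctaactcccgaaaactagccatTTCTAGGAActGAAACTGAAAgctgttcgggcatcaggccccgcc
Oas1a, chr5:120907526-120907635, minus strand: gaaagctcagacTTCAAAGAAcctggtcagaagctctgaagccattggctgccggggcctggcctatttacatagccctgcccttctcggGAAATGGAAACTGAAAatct
Oas1g, chr5:120887614-120887723, minus strand: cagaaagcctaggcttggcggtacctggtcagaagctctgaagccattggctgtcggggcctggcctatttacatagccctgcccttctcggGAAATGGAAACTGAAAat
Isg15 carried 3 overlapping ISRE cores and Ifit1 a pair of separate ones. The windows of Irgm2 and Igtp, 2 neighbouring GTPase genes, shared an unbroken run of 38 bases, and those of the paralogs Oas1a and Oas1g one of 56 bases. A match is a description of the letters and not a binding site. Reads of such near-identical neighbours can be split between them by the counting, so Oas1a against Oas1g, the Gbp genes among themselves, Irgm2 against Igtp, and the Ifitm genes are individually less certain than their families.

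Levels are given as CPM, read counts scaled to library size, here with factors from the trimmed mean of M-values over all 25 libraries. Total counts per library lay between 20818989 and 51241336, and 3 counts correspond to between 0.0576 and 0.141 CPM, a floor that covers counting error only. The 5 markers of the progenitors (Krt8, Krt18, Krt19, Epcam and Cdh1) summed to 6972 to 10850 CPM in cultured and tumour cells, and in stroma to 664.5 to 1535 CPM. Epcam went the other way from that sum, with means of at most 0.329 CPM in culture (0 in RasLOW) and of 0.068 and 0.049 CPM in tumour cells, against 5.61 and 4.37 CPM in liver and peritoneal stroma. The 6 leukocyte markers summed to 2465 to 4685 CPM in stroma, to 28.5 to 95.8 CPM in sorted tumour cells and to 0.419 to 14.1 CPM in culture, where Tyrobp had no count in BMEL WT and RasHIGH, and Laptm5 and Tyrobp none in RasLOW. The row of mouse Hras did not follow the Ras labels (medians of 82.9, 86.4 and 71.5 CPM in BMEL WT, RasLOW and RasHIGH); whether reads of the transgene fall in that row is not given in the sources used here, so it checks nothing.

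By the median of its group means, the list was lowest in culture, higher in tumour cells and highest in stroma. The median of the 47 group means was 0.588 CPM in BMEL WT, 0.263 in RasLOW and 0.768 in RasHIGH cells. It was 2.43 CPM in liver tumour cells and 3.33 in peritoneal tumour cells, and it reached 32.95 CPM in liver and 21.1 CPM in peritoneal stromal cells. Every gene had a mean of at least 1 CPM in both stromal groups, whereas this held for 30 and 33 genes in liver and peritoneal tumour cells and for between 16 and 21 in culture. Of the 24984 genes of the table, 13327 and 13486 reached 1 CPM in liver and peritoneal stroma. In liver and peritoneal tumour cells 11509 and 11741 did, and in culture between 11117 and 11423. Both stromal means were above all other group means for 44 of the 47 genes, and the exceptions were Isg20, Oasl1 and Irgm1. The share of all genes with that order was not counted.

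**Figure D1:**
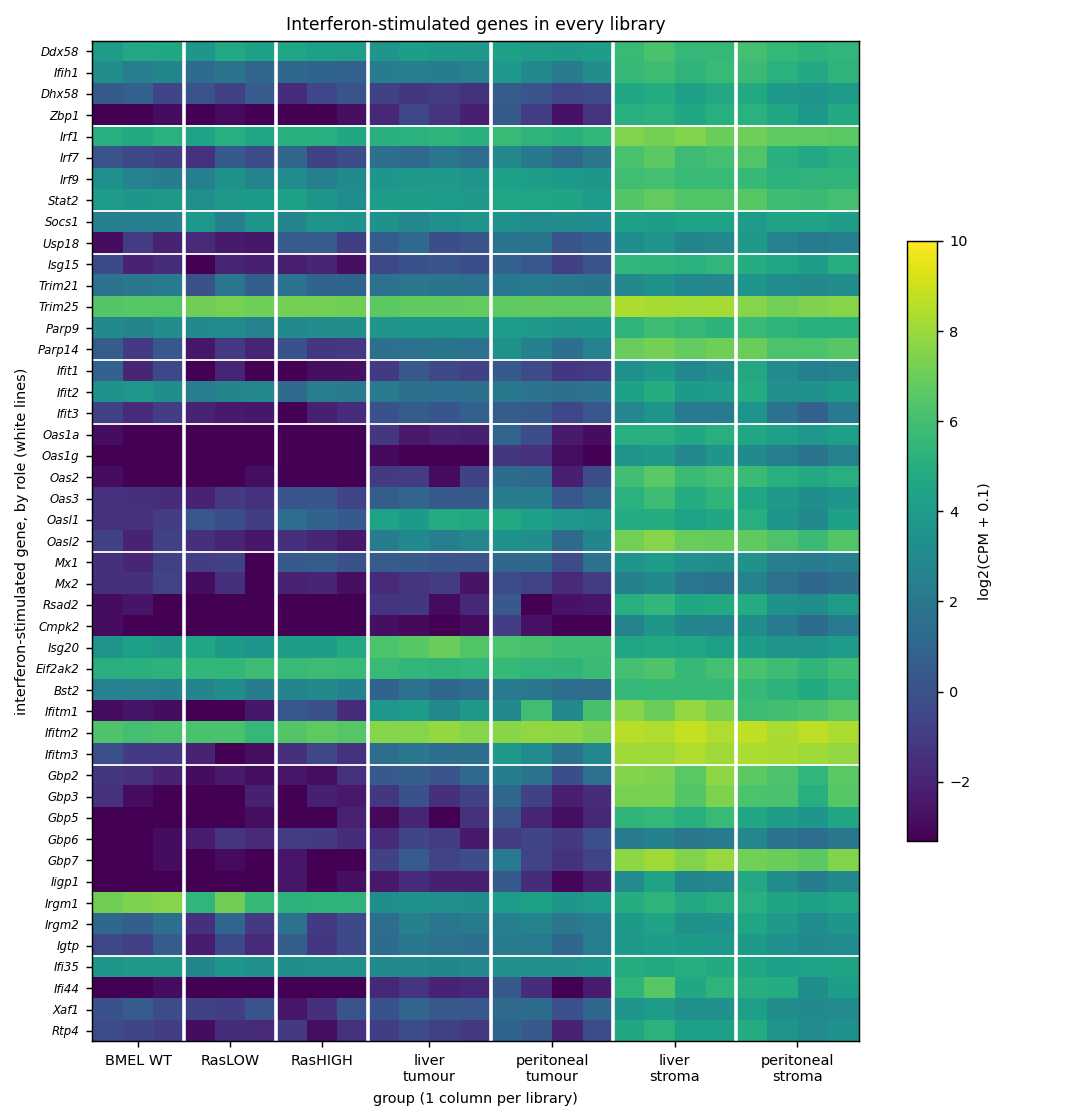
Each row is 1 of the 47 interferon-stimulated genes, grouped by role between white lines, and each column is 1 of the 25 libraries; colour gives log2(CPM + 0.1), not corrected for gene length, so rows are to be read across and not against each other. Most rows are dark in the 9 cultures, intermediate in the 8 tumour cell libraries and bright in the 8 stromal libraries, with Isg20 and Irgm1 as the visible exceptions.

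Among the transcription factors, Irf1, which drives the response to interferon gamma, was at 32.9, 28.1 and 35.9 CPM in BMEL WT, at 20.5, 33.1 and 23.5 in RasLOW and at 34.9, 32.6 and 24.7 in RasHIGH cultures. It was at 35.4, 36.5, 40.04 and 34.9 CPM in liver tumour cells and at 52.3, 39.8, 35.1 and 45.5 in peritoneal tumour cells, and between 97.3 and 176.6 CPM in the 8 stromal libraries. Irf1 was thus well expressed in every library, and its culture range reached into that of liver tumour cells. Irf7, the amplifier of interferon alpha production, was at 1.01, 0.654 and 0.518 CPM in BMEL WT, 0.288, 1.28 and 0.770 in RasLOW, 1.97, 0.517 and 0.812 in RasHIGH, 2.97, 2.26, 3.61 and 2.75 in liver tumour cells and 7.71, 4.10, 2.29 and 3.80 in peritoneal tumour cells. In stroma, Irf7 was at 72.5, 99.3, 56.6 and 67.95 CPM in the liver and at 83.9, 35.4, 26.1 and 35.4 in the peritoneum. All tumour cell values of Irf7 exceed all culture values, and all stromal values exceed both. Irf9 and Stat2, partners in the ISRE-binding complex, were between 4.85 and 11.2 and between 8.70 and 19.02 CPM in the 9 cultures. They were between 12.3 and 18.6 and between 14.6 and 23.3 CPM in the 8 tumour cell libraries, and between 37.7 and 63.8 and between 54.6 and 110.0 CPM in stroma.

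The brakes behaved unlike each other. Socs1, which blocks Jak kinases, was at 5.20, 5.03 and 5.48 CPM in BMEL WT, 13.7, 5.45 and 12.5 in RasLOW, 6.59, 11.8 and 11.4 in RasHIGH, and between 7.01 and 11.9 CPM in all 8 tumour cell libraries. Stroma held between 16.3 and 22.1 CPM, so Socs1 spans a narrow range overall. Usp18, which removes Isg15 and blocks the type I receptor, was between 0.0349 and 0.413 CPM in BMEL WT, between 0.0810 and 0.216 in RasLOW and at 1.36, 1.38 and 0.451 in RasHIGH. Tumour cells held 0.818 to 3.47 CPM, and stroma 4.37 to 14.1 CPM.

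Isg15 was at 0.698, 0.138 and 0.222 CPM in BMEL WT and between 0 and 0.172 CPM in the 6 Ras cultures. It was at 0.639, 0.933, 1.03 and 0.832 CPM in liver tumour cells, at 1.75, 1.11, 0.480 and 0.960 in peritoneal tumour cells, and between 17.8 and 43.4 CPM in stroma. Ifit1, which binds viral RNA caps, was at 1.71, 0.172 and 0.629 CPM in BMEL WT, under 3 counts or just above in the Ras cultures (0 to 0.164 CPM), 0.326 to 1.28 CPM in tumour cells, and in stroma 5.23 to 25.8 CPM. Both genes were thus near the floor in Ras cultures and above it in every tumour cell library. Gbp2, a GTPase that attacks pathogen vacuoles, was between 0.0359 and 0.349 CPM in culture, 0.826 to 4.81 in tumour cells, and in stroma 44.03 to 210.6. Iigp1, a GTPase of the same defence, had no count in 7 of the 9 cultures and 0.0758 and 0.0451 CPM in RasHIGH 1 and 3. It was between 0.0912 and 0.198 CPM in liver tumour cells, at 1.28, 0.217, 0.0192 and 0.111 in peritoneal tumour cells, and between 4.92 and 26.3 CPM in stroma.

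**Figure D2:**
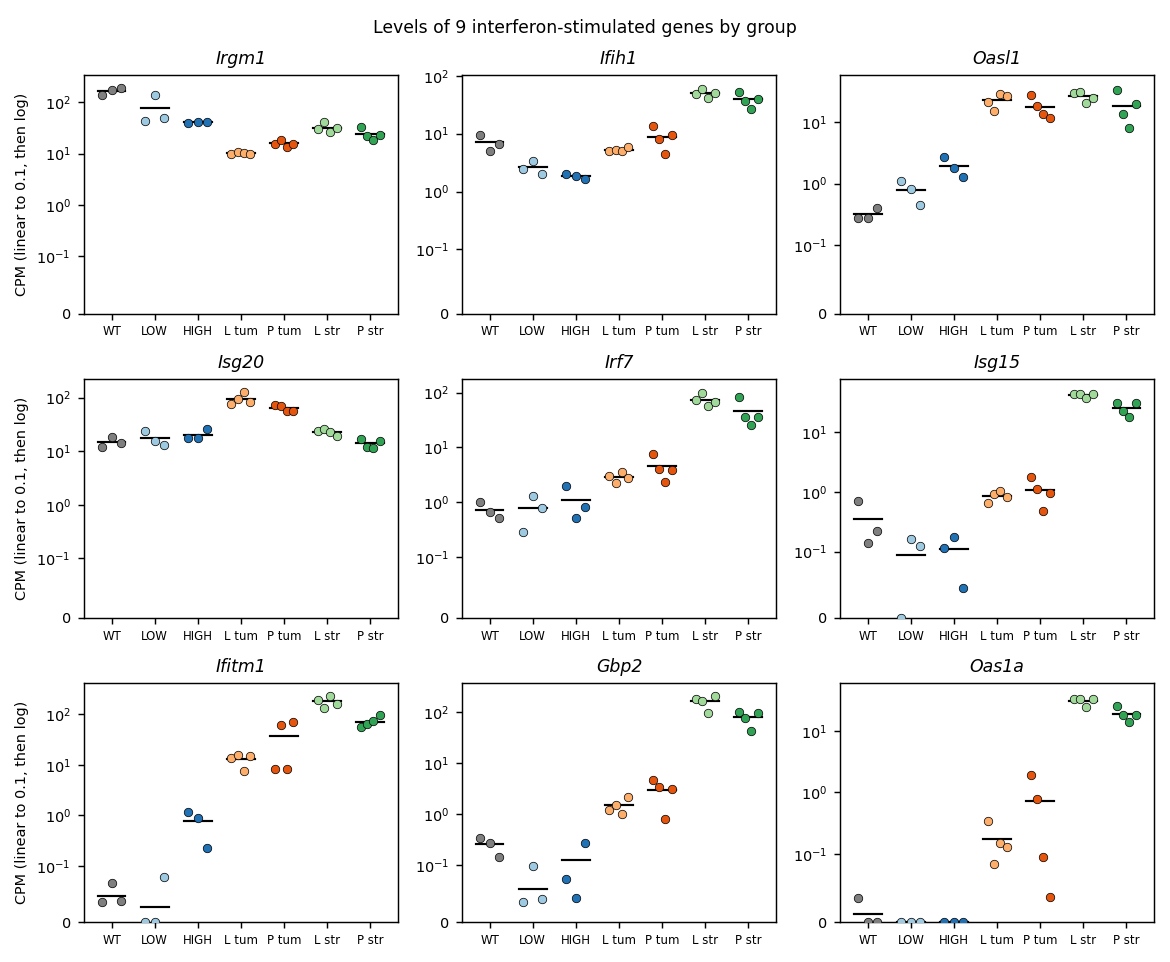
CPM of 9 interferon-stimulated genes in each library (points; bars are group means) for BMEL WT, RasLOW, RasHIGH, liver (L) and peritoneal (P) tumour cells (tum) and stroma (str); the axis is linear up to 0.1 CPM and logarithmic above. Irgm1 is highest in BMEL WT and lowest in tumour cells, Isg20 is highest in tumour cells, Oasl1 is as high in tumour cells as in stroma, and the other genes are highest in stroma.

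The first question was how oncogenic Ras moved the list in cultured cells. In RasLOW against BMEL WT, 26 genes passed the filter on low counts and 1 was called (edgeR quasi-likelihood test, adjusted p under 0.05 over all genes tested), where 5.96% of all genes tested were called (1.92% higher and 4.05% lower). Trim25, the ligase that activates Ddx58, was at 87.3, 94.4 and 89.8 CPM in BMEL WT and at 140.1, 154.8 and 132.5 in RasLOW cells, without overlap (log2 fold change 0.62 ± 0.13 SE, edgeR adjusted p = 0.0349). The median log2 fold change of the 26 genes was -0.29, against 0.01 over all genes tested. The count rests on single libraries: without RasLOW 2 it was 10 (2 higher and 8 lower), and without any 1 of the other 5 libraries it was 0 (edgeR adjusted p of Trim25 between 0.0641 and 0.14).

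In RasHIGH against BMEL WT, 28 genes were tested, 5 were higher and 3 were lower, which is 8 called beside 22.6% called over all genes (10.9% higher and 11.7% lower). The median of the 28 was -0.10, against -0.02 over all genes. Of the higher genes, Oasl1, an Oas-like protein that restrains Irf7 translation, was at 0.279, 0.276 and 0.407 CPM in BMEL WT, 1.11, 0.820 and 0.446 in RasLOW and 2.73, 1.81 and 1.26 in RasHIGH cells. It rose by a log2 fold change of 2.54 ± 0.42 SE (edgeR adjusted p = 0.00641), and no RasHIGH culture overlapped BMEL WT. Mx1, a GTPase against influenza-type viruses, was at 0.244, 0.172 and 0.481 CPM in BMEL WT and 1.25, 1.42 and 0.902 in RasHIGH (log2 1.95 ± 0.47 SE, edgeR adjusted p = 0.0251). Trim25 was at 148.4, 147.0 and 140.6 CPM in RasHIGH (log2 0.65 ± 0.10 SE, edgeR adjusted p = 0.00617). Eif2ak2, the kinase PKR that stops translation on double-stranded RNA, went from 33.5, 34.6 and 39.6 to 49.6, 55.7 and 50.2 CPM (log2 0.49 ± 0.13 SE, edgeR adjusted p = 0.0364). The call of Eif2ak2 was lost without any 1 BMEL WT culture, RasHIGH 2 or RasHIGH 3 (edgeR adjusted p between 0.0617 and 0.142), and that of Mx1 without BMEL WT 1, BMEL WT 2 or RasHIGH 2 (0.0819 to 0.0929). The fifth, Oas3, was between 0.222 and 0.279 CPM in BMEL WT and between 0.541 and 1.08 in RasHIGH (log2 1.75 ± 0.42 SE, edgeR adjusted p = 0.0249), and it is named after its values were seen, since its RasHIGH mean is under 1 CPM.

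The 3 lower genes were all above 5 CPM in every BMEL WT culture. Irgm1, a GTPase that regulates autophagy of intracellular pathogens, was at 139.4, 168.7 and 191.2 CPM in BMEL WT, at 43.1, 139.7 and 48.7 in RasLOW and at 38.96, 40.8 and 40.9 in RasHIGH cells (log2 -2.09 ± 0.15 SE, edgeR adjusted p = 0.000363). RasLOW 2 thus lay at the BMEL WT level while the other 2 RasLOW cultures lay near RasHIGH. Ifih1, the sensor Mda5 of long double-stranded RNA, was at 9.60, 5.10 and 6.73 CPM in BMEL WT, 2.41, 3.41 and 2.03 in RasLOW and 2.05, 1.85 and 1.67 in RasHIGH (log2 -1.98 ± 0.30 SE, edgeR adjusted p = 0.00467). Ifit2, which binds AU-rich RNA, was at 10.9, 13.8 and 9.92 CPM in BMEL WT, 5.03, 6.63 and 7.01 in RasLOW and 2.31, 5.04 and 4.28 in RasHIGH (log2 -1.61 ± 0.32 SE, edgeR adjusted p = 0.0131; 0.0536 without BMEL WT 2). The RasLOW cultures of Ifih1 and Ifit2 lay below every BMEL WT culture, although neither was called there. BMEL WT 1 and 2 came from lane 3 in the labels, and BMEL WT 3 and all Ras cultures from lane 4. With lane 4 alone, which leaves 1 BMEL WT library, Irgm1 was the gene still called.

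Between RasHIGH and RasLOW, 25 genes were tested and 0 were called by edgeR, where 0.0752% of all genes were (0.0585% higher and 0.0167% lower). An unadjusted p under 0.05 was reached by 4 of them, DESeq2 called 1, and a fit of all libraries called 2. The shares of all genes at these cuts are not given here. Under the study's own thresholds 1 was called, beside 2.12% of all genes. The 3 culture comparisons share their libraries. Ifitm1, a membrane protein that blocks viral entry, was too low to be tested here: it had no count in 2 RasLOW cultures and 0.0810 CPM in the third, and 1.18, 0.904 and 0.225 CPM in RasHIGH. RasHIGH 1 and RasLOW 2, whose identifiers in the labels are consecutive, were the highest 2 of the 6 Ras cultures for 6 of 18 genes with a mean of at least 1 CPM (Ddx58, Irf1, Irf9, Trim21, Trim25 and Irgm2; 33.3%), against 21.4% of all genes, and the lowest 2 for Socs1 alone (5.56%, against 22.3%). The other pair with consecutive identifiers, RasHIGH 2 and RasLOW 3, was the highest 2 for 1 of 18 genes (Eif2ak2; 5.56%, against 1.63% of all genes) and the lowest 2 for 0 (4.07% of all genes). The first pair was chosen after the values were seen, and the part of such pairs in the culture results was not tested.

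The second question was how tumour cells compare with the Ras cells in culture. Against the 6 Ras cultures, 37 genes were tested in liver tumour cells, 22 were higher and 3 lower (53.4% of all genes were called, 26.7% in each direction), with a median log2 fold change of 1.39 against -0.02 over all genes. In peritoneal tumour cells, 38 genes were tested, 28 were higher and 3 lower (48.8% of all genes called, 24.6% higher and 24.1% lower), with a median of 1.96 against -0.02. The 2 comparisons share their culture libraries. The groups differ also in lane, dissociation and sorting: 8 genes of the dissociation stress response summed to between 253.7 and 1687 CPM in culture and in tumour cells to 3236 to 5769 CPM, and the part of these differences in the results was not tested. The macrophage markers summed to 3.65 to 8.03 CPM in Ras cultures and 23.1 to 257.4 CPM in tumour cells. Gbp2 and Ifitm3 stood at 0.908% and 1.06% of stroma in liver tumour cells. In peritoneal tumour cells, Gbp7, Ifitm3 and Oas2 stood at 1.04%, 2.95% and 3.7% of stroma. The part of carried-over stromal RNA in the rises over culture was not tested.

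Ifitm1 went from between 0 and 1.18 CPM in Ras cultures to 13.4, 15.5, 7.60 and 14.9 CPM in liver tumour cells (log2 6.43 ± 0.51 SE, edgeR adjusted p = 5.91e-06) and to 8.12, 60.9, 8.14 and 69.6 CPM in peritoneal tumour cells (log2 7.95 ± 0.92 SE, edgeR adjusted p = 0.000117). Peritoneal mice 2 and 4 thus lay well above mice 1 and 3. The size depends on the reference: against RasHIGH alone the log2 fold changes of Ifitm1 were 4.04 and 5.56 at the 2 sites, and against RasLOW alone, where it had 2 counts, 8.83 and 10.36. Its relative Ifitm3 went from between 0 and 0.603 CPM to between 2.74 and 3.76 CPM in the liver and to 14.5, 8.64, 3.13 and 7.27 CPM in the peritoneum (log2 4.28 ± 0.45 and 5.75 ± 0.59 SE; 3.01 and 4.48 against RasHIGH alone, 5.57 and 7.04 against RasLOW alone). Ifitm2, which was already at 47.2 to 105.4 CPM in Ras cultures, stood at 169.2 to 238.5 CPM in tumour cells and rose at both sites (log2 1.39 ± 0.13 and 1.42 ± 0.14 SE).

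Of the 6 Oas genes, Oas2, Oas3, Oasl1 and Oasl2 passed the filter and were higher at both sites, while Oas1a and Oas1g, nearly or wholly without counts in culture, were not tested. A gene this low in culture passes the filter through the tumour cells where it is high, so that such counts describe the genes tested and support nothing further. Oasl2, an Oas-like protein, went from between 0.0810 and 0.265 CPM in Ras cultures to 4.95, 8.31, 5.06 and 7.10 CPM in the liver (log2 5.17 ± 0.33 SE, edgeR adjusted p = 1.55e-06) and 10.99, 9.38, 2.30 and 6.79 CPM in the peritoneum (log2 5.40 ± 0.49 SE, edgeR adjusted p = 3.58e-05). Oasl1 went from between 0.446 and 2.73 CPM to 21.1, 15.4, 28.8 and 26.3 CPM in the liver (log2 4.20 ± 0.28 SE, edgeR adjusted p = 2.31e-06) and to 27.4, 18.1, 13.6 and 11.8 CPM in the peritoneum. Oasl1 and Oas3 were thus called higher in RasHIGH than in BMEL WT, and again in tumour cells of both sites than in Ras cultures. Oas2 had 1 count in all 6 Ras cultures, 0.520% (exact Poisson 95% interval 0.0132 to 2.90%) of the level in peritoneal tumour cells, which was 2.50, 2.09, 0.115 and 0.775 CPM. Gbp7 had 3 counts in the Ras cultures, 1.53% (0.315 to 4.46%) of the peritoneal level of 4.31, 0.544, 0.288 and 0.554 CPM. Both intervals cover the counting error of the cultures alone, and not the spread between cultures or between mice.

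Among the other members named by their roles, Gbp2 rose by log2 4.04 ± 0.47 SE in liver and 5.07 ± 0.61 SE in peritoneal tumour cells, Isg15 by 3.0 ± 0.50 and 3.34 ± 0.62 SE, and Ifit1 by 3.95 ± 0.73 and 3.97 ± 0.83 SE. Ifit3, a partner of Ifit1, went from between 0 and 0.225 CPM in Ras cultures to between 0.912 and 1.66 CPM in liver tumour cells (log2 3.46 ± 0.49 SE, edgeR adjusted p = 0.00021). Irf7 rose by 1.64 ± 0.42 and 2.28 ± 0.50 SE, Irf9 by 0.83 ± 0.22 and 1.08 ± 0.23 SE and Usp18 by 1.87 ± 0.43 and 2.66 ± 0.49 SE. All of these passed the edgeR test in both comparisons. Irf1 and Stat2 passed it in the peritoneal comparison (log2 0.63 ± 0.17 SE and 0.66 ± 0.22 SE), and the call of Stat2 was lost without RasLOW 1, RasHIGH 2 or peritoneal tumour cells of mouse 1, 2 or 3 (edgeR adjusted p between 0.0508 and 0.0693). With RasHIGH as the only reference, Irf1 and Stat2 in the peritoneum and Usp18 at both sites were not called.

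The same 3 genes, Irgm1, Bst2 and Trim25, fell at both sites. Irgm1, already lower in RasHIGH cells, went down further to 9.88, 10.8, 10.3 and 9.98 CPM in liver tumour cells (log2 -2.45 ± 0.32 SE, edgeR adjusted p = 0.000113) and to 15.5, 18.7, 13.2 and 15.5 CPM in peritoneal tumour cells (log2 -1.81 ± 0.32 SE, edgeR adjusted p = 0.00121). Its 4 liver tumour values span under 1 CPM and lie below every other library of the series. Bst2, the tetherin that holds budding virions, went from 4.90 to 9.42 CPM in Ras cultures to 1.89, 3.0, 2.06 and 2.75 CPM in the liver and 4.21, 3.81, 2.69 and 2.62 CPM in the peritoneum (log2 -1.48 ± 0.24 SE and -1.0 ± 0.24 SE). Trim25 went from between 132.5 and 154.8 to between 98.3 and 109.9 CPM in the 8 tumour cell libraries (log2 -0.44 ± 0.09 SE and -0.46 ± 0.08 SE). Ddx58, Dhx58, Socs1, Trim21, Ifit2, Eif2ak2 and Ifi35 were measured above the floor in culture and tumour cells and were called at neither site.

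The third question was how the sorted tumour cells compare with the stroma of the same tumour. In the liver, all 47 genes were tested, 45 were lower in tumour cells, 1 was higher and 1 was not called, where 77.8% of all genes were called (38.4% higher and 39.4% lower). The median log2 fold change was -3.83, against 0.00 over all genes. In the peritoneum, 43 of 47 were lower, 1 was higher and 3 were not called (76.6% of all genes called, 39.5% higher and 37.1% lower), with a median of -2.43 against 0.07. Some genes were nearly without counts in tumour cells, such as Oas1g and Cmpk2 with 1 and 4 in the liver. Such genes passed the filter through the stroma where they are high, and could only come out lower. The counts of called genes thus describe the genes tested and support nothing further. In bulk libraries, fewer expressing cells and less RNA per cell cannot be told apart.

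Isg20, an exonuclease that degrades viral RNA, was the gene that was higher in tumour cells, at 75.0, 93.7, 124.8 and 83.2 CPM against 23.5, 26.5, 22.99 and 19.2 in liver stroma (log2 2.0 ± 0.16 SE, edgeR adjusted p = 2.58e-07). In the peritoneum it was at 74.04, 69.7, 57.3 and 57.3 CPM against 16.8, 11.7, 11.6 and 15.8 (log2 2.27 ± 0.16 SE, edgeR adjusted p = 5.18e-06). The cultures lay between 11.9 and 25.8 CPM, near the stromal level, so Isg20 differed from the rest of the list in its order of groups. The progenitor markers summed to means of 1370 and 856.1 CPM in liver and peritoneal stroma, against 8858 and 9977 in tumour cells. Epcam went the other way, and the part of tumour cell RNA in the stromal level of Isg20 was not tested. Oasl1 was called at neither site, with 20.6 to 30.4 CPM in liver stroma and 32.9, 13.4, 8.0 and 19.97 CPM in peritoneal stroma, and Eif2ak2 and Ifitm1 were not called in the peritoneum.

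The lowest tumour levels relative to liver stroma were those of Oas1g, Gbp5, Cmpk2, Gbp7, Gbp3 and Ifi44. In liver stroma, Gbp7 was at 213.3, 277.1, 177.0 and 248.3 CPM, and in liver tumour cells at 0.525, 1.33, 0.576 and 0.800 (log2 -8.18 ± 0.26 SE, edgeR adjusted p = 8.9e-11). Gbp5, an activator of inflammasomes, was between 34.4 and 51.97 CPM in liver stroma and between 0 and 0.288 in liver tumour cells (log2 -8.60 ± 0.39 SE, edgeR adjusted p = 1.75e-09), and Gbp3 between 86.2 and 165.5 and between 0.242 and 0.933 CPM (log2 -8.14 ± 0.34 SE, edgeR adjusted p = 8.25e-10). Ifi44 was between 24.1 and 92.2 CPM in liver stroma and between 0.152 and 0.311 CPM in liver tumour cells (log2 -7.89 ± 0.51 SE, edgeR adjusted p = 4.01e-08). Oas1g had 1 count in the 4 liver tumour libraries, 0.0615% (exact Poisson 95% interval 0.00156 to 0.343%) of the stromal level, and Cmpk2, a mitochondrial nucleotide kinase, had 4 counts, 0.349% (0.0950 to 0.893%). These intervals cover the counting error of the tumour cells alone, and not the spread between mice. At the other end, tumour cells of the liver held 87.0% of the stromal level of Oasl1, 69.5% of Eif2ak2, 53.9% of Ifitm2 and 51.2% of Socs1.

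In the peritoneum the lowest shares of the stromal mean were those of Gbp7 and Gbp3. Gbp7 was between 99.9 and 176.9 CPM in peritoneal stroma (log2 -6.57 ± 0.83 SE, edgeR adjusted p = 0.000112) and Gbp3 between 33.95 and 88.7 CPM, against 2.15, 0.516, 0.115 and 0.222 CPM in tumour cells (log2 -6.47 ± 0.79 SE, edgeR adjusted p = 8.73e-05). Gbp5, Ifi44, Zbp1 and Rsad2 followed, with log2 fold changes from -5.88 to -5.63. Zbp1, the sensor of Z-form nucleic acid, and Rsad2, the viperin enzyme that makes a chain-terminating nucleotide, were at 1.25 and 1.22 CPM in tumour cells of mouse 1 and at no more than 0.435 CPM in the other mice. These folds rest on tumour cells of mouse 1. Without that library the log2 fold change was -8.49 for Rsad2, -8.30 for Gbp7, -7.95 for Gbp3, -7.79 for Ifi44, -7.40 for Gbp5 and -6.73 for Zbp1, so that Rsad2 was the lowest of these 6.

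Of the transcription factors, 3 of 4 lay above the list's median share of the stromal level. Irf1, Irf9 and Stat2 in liver tumour cells were at 23.3%, 23.4% and 17.9% of the stromal mean, and Irf7 was at 3.91%. In the peritoneum these were 39.1%, 37.6%, 31.2% and 9.91%. Fold changes of the factors between tumour cells and stroma lay between -4.71 and -2.13 in the liver and between -3.28 and -1.29 in the peritoneum. Isg15 was at 2.07% and 4.22% of stroma, Ifit1 at 6.67% and 6.09%, Gbp2 at 0.908% and 3.83%, Iigp1 at 1.26% and 3.36%, Usp18 at 16.2% and 32.2%, and Socs1 at 51.2% and 50.02%. All of these were called at both sites, and the call of Usp18 in the peritoneum was lost without peritoneal tumour cells of mouse 4 or peritoneal stroma of mouse 1 (edgeR adjusted p = 0.0503 and 0.0611).

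Markers of stromal cell types were read in the sorted tumour cells in the same way, leukocyte markers first. The median tumour level of the 6 markers was 0.301% of stroma in the liver and 0.881% in the peritoneum, with between 0.211% and 0.361% in single liver mice. In the peritoneum, mouse 1 stood at 2.75% and the other mice at 0.242%, 0.384% and 0.187%. The highest single marker was Cd53, at 14.1% and 11.7%, which was also counted in RasHIGH cultures (6.13 to 13.9 CPM). The median over the 47 genes was 7.15% in liver and 17.8% in peritoneal tumours, where 19 and 26 genes lay above Cd53. Genes at the low end, Gbp5 (0.273%), Cmpk2 (0.327%), Gbp7 (0.353%), Gbp3 (0.361%) and Ifi44 (0.423%), lay in liver tumour cells within the range of the other 5 leukocyte markers (0.220% to 0.356%) or just above it. Oas1g, at 0.0502%, lay below that range. Markers of other stromal cells mostly stood higher. In liver tumour cells, the median of 7 macrophage markers was at 0.516% of stroma, with Cd68 the highest at 3.79%. There, 5 fibroblast markers were between 0.726% and 0.871%, and 4 Kupffer cell markers were between 0.79% and 1.8%. Of the endothelial markers, Kdr, Tek, Stab2 and Pecam1 were at 0.608%, 0.686%, 0.695% and 0.965%, and Cdh5 was at 72.4%. Oas2, Oas1a, Rsad2, Gbp2, Zbp1, Ifitm3, Iigp1 and Dhx58 (0.477% to 1.57%) also lay below the highest of the Kupffer cell markers. In peritoneal tumour cells the macrophage median was 1.42%, with Cd68 the highest at 4.23%. The fibroblast markers were between 0.783% and 1.67% there, and Pecam1 and Kdr were at 4.0% and 4.11%. The other endothelial markers were at 3.84% (Tek), 10.9% (Stab2) and 103.1% (Cdh5). Gbp7, Gbp3, Gbp5, Ifi44, Zbp1, Rsad2, Cmpk2, Oas1g, Ifitm3, Iigp1, Oas2, Oas1a and Gbp2 (1.04% to 3.83%) lay below Pecam1 there. The part of carried-over stromal RNA in these low values was not tested.

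**Figure D3:**
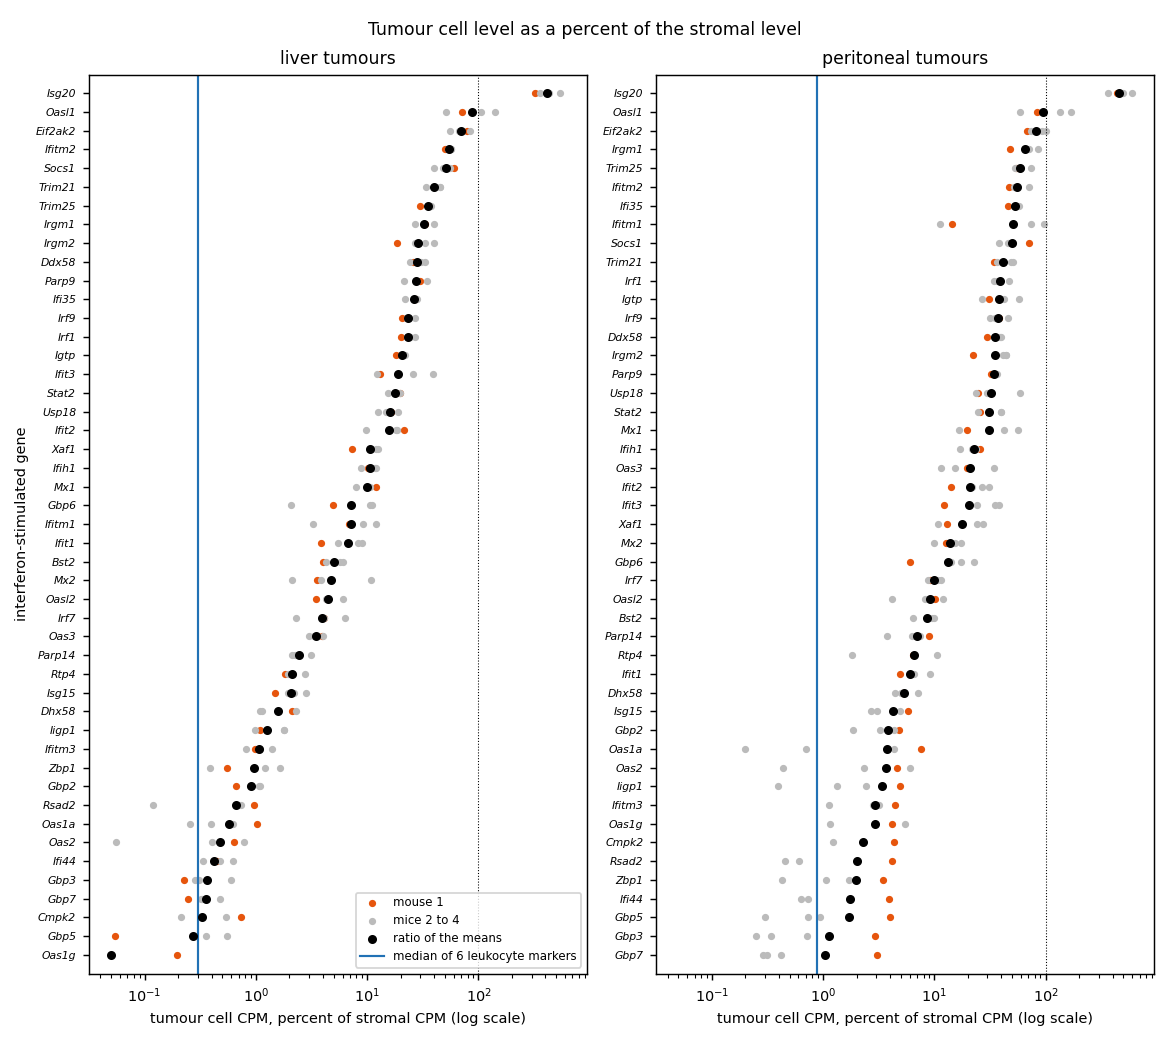
Level of each of the 47 genes in tumour cells as a percent of its level in stromal cells (logarithmic axis), in liver tumours on the left and peritoneal tumours on the right; black points are ratios of group means, orange points mouse 1, grey points mice 2 to 4, and mice with no count in tumour cells have no point. The blue line marks the median of 6 leukocyte markers (0.301% and 0.881%), the dotted line marks 100%, and in the peritoneum the orange points of the 7 lowest genes lie to the right of the other mice.

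The fourth question was whether the list differed between liver and peritoneal tumours. In tumour cells, 40 genes were tested, 0 were higher and 2 were lower in the liver, where 3.2% of all genes were called (1.33% higher and 1.87% lower). The fold changes leaned one way: 35 of 40 were negative, with a median of -0.51 against -0.01 over all genes. Irgm1 (values above) had a log2 fold change of -0.63 ± 0.12 SE (edgeR adjusted p = 0.0243), and its 4 liver values lay below its 4 peritoneal values. Ifi35, a small interferon-induced leucine zipper protein, was at 8.33, 7.77, 6.82 and 7.78 CPM in the liver and at 10.7, 10.2, 10.7 and 12.9 in the peritoneum, also without overlap (log2 -0.55 ± 0.13 SE, edgeR adjusted p = 0.0472). With the mouse as a block, 0 genes were called. The call of Irgm1 was lost without liver tumour cells of mouse 2 or 4 (edgeR adjusted p = 0.0811 and 0.0773), and that of Ifi35 without any 1 library other than peritoneal tumour cells of mouse 1 (0.0557 to 0.128). DESeq2 called 5 of the list and the study's own thresholds 6, beside 3.52% of all genes under those thresholds. Per mouse, 8 of 31 genes with a mean of at least 1 CPM were lower in the liver tumour of all 4 mice (Stat2, Irf9, Usp18, Trim21, Ifitm3, Irgm1, Irgm2 and Ifi35; 25.8%, against 12.9% of all genes) and 1 was higher in all 4 (Isg20; 3.23%, against 14.9%).

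The size of this lean depended on peritoneal tumour cells of mouse 1. They were the highest of the 4 peritoneal tumour libraries for 21 of 33 genes (63.6%, against 26.9% of all genes), and by a median log2 of 0.35 over the mean of the other 3 (all genes, -0.05). This was also the library with leukocyte markers at 2.75% of stroma, and the part of carried-over stromal RNA in its levels was not tested. The labels give it lane 1 and the other 3 peritoneal tumour libraries lanes 2 and 3. Mouse and lane cannot be told apart here. Without it, 28 of 40 fold changes were negative with a median of -0.25, and 1 gene was higher and 2 were lower. Without any 1 of the other 7 libraries, between 33 of 40 and 38 of 42 were negative.

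In stromal cells, 47 genes were tested, 16 were higher and 0 lower in the liver (33.4% of all genes called; 14.9% were higher and 18.5% lower), with a median log2 fold change of 0.46 against 0.02 over all genes. The Oas family held 5 of the 16. Oas3 was at 36.01, 58.3, 30.2 and 42.4 CPM in liver and 23.9, 14.4, 9.74 and 12.9 CPM in peritoneal stroma, without overlap (log2 1.41 ± 0.29 SE, edgeR adjusted p = 0.00448). Ifitm1 was at 195.7, 130.3, 231.6 and 161.2 CPM against 56.4, 63.3, 72.7 and 94.9 (log2 1.28 ± 0.20 SE, edgeR adjusted p = 0.00106). Of the GTPases, 4 of 9 were higher. Gbp5 was at 42.5, 47.4, 34.4 and 51.97 against 24.1, 17.3, 12.7 and 25.2 CPM (log2 1.11 ± 0.22 SE, edgeR adjusted p = 0.00372), Gbp3 and Gbp2 had log2 fold changes of 1.02 ± 0.29 and 1.01 ± 0.29 SE, and Gbp7 one of 0.69 ± 0.19 SE. The call of Gbp3 was lost without liver stroma of mouse 1, 2 or 4, and that of Gbp2 without liver stroma of mouse 1 or 4 or peritoneal stroma of mouse 2 (edgeR adjusted p between 0.0516 and 0.0637).

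The remaining calls in stroma were smaller. Trim25 was between 284.3 and 326.8 CPM in liver and between 145.1 and 193.0 in peritoneal stroma (log2 0.74 ± 0.11 SE, edgeR adjusted p = 0.000569). Isg15 was higher by log2 0.66 ± 0.17 SE, Irf1 by 0.47 ± 0.13 SE and Irf9 by 0.41 ± 0.11 SE, and Oas1a, Oas1g, Oas2, Oasl2, Isg20 and Ifi35 by between 0.43 and 0.97. None of the 4 sensors, neither brake and none of the 3 Ifit genes was called. Without peritoneal stroma of mouse 1 the count was 28, and without that of mouse 2 it was 10. The call of Irf1 was lost without liver stroma of mouse 1 or 3, that of Oas1g without liver stroma of mouse 1, 2 or 4, and both without peritoneal stroma of mouse 2, 3 or 4 (edgeR adjusted p between 0.0531 and 0.0723). Under the study's own thresholds 6 genes were called, beside 14.3% of all genes, and a fit of all libraries also called 6. The stroma of the 2 sites differs in composition, with 5 fibroblast markers summing to 4048 to 8167 CPM in liver and 51900 to 80010 CPM in peritoneal stroma, and the 6 leukocyte markers to 3718 to 4685 and 2465 to 3005 CPM; the part of composition was not tested.

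Tested against each other, the site differences in tumour cells and in stroma were unequal for 15 of 47 genes, all 15 with the lower value in tumour cells (14.3% of all genes called, 7.5% in that direction and 6.79% in the other), and the median of the 47 was -1.05 against -0.12 over all genes. The 15 were Dhx58, the transcription factors Irf1, Irf9 and Stat2, Trim25, Parp14, Oas1g, Oas2, Oas3, Mx1, Ifitm1, Ifitm3, Gbp2, Irgm1 and Ifi35. For Ifitm1 the site difference was 1.28 in stroma and -1.51 ± 0.65 SE in tumour cells, where it was not called, a gap of -2.87 ± 0.79 SE (edgeR adjusted p = 0.0242), and for Oas3 the gap was -2.61 ± 0.57 SE (edgeR adjusted p = 0.00643). Ifi35 had a gap of -1.06 ± 0.15 SE (edgeR adjusted p = 0.000251) and was called in both single comparisons, in opposite directions. The count ranged from 7 without peritoneal stroma of mouse 2 to 24 without peritoneal tumour cells of mouse 3, and was 9 without liver tumour cells of mouse 3 or without peritoneal stroma of mouse 3. The calls of Oas2 and Gbp2 were lost without 9 and 8 of the 16 libraries in turn, and those of Stat2, Ifitm1 and Irf9 were among those lost without peritoneal stroma of mouse 2 (edgeR adjusted p between 0.051 and 0.0803 over all these). Ifitm1 was also lost without liver tumour cells of mouse 3 or peritoneal tumour cells of mouse 2 or 4, and Stat2 without liver tumour cells of mouse 3, peritoneal tumour cells of mouse 1 or peritoneal stroma of mouse 3 or 4.

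**Figure D4:**
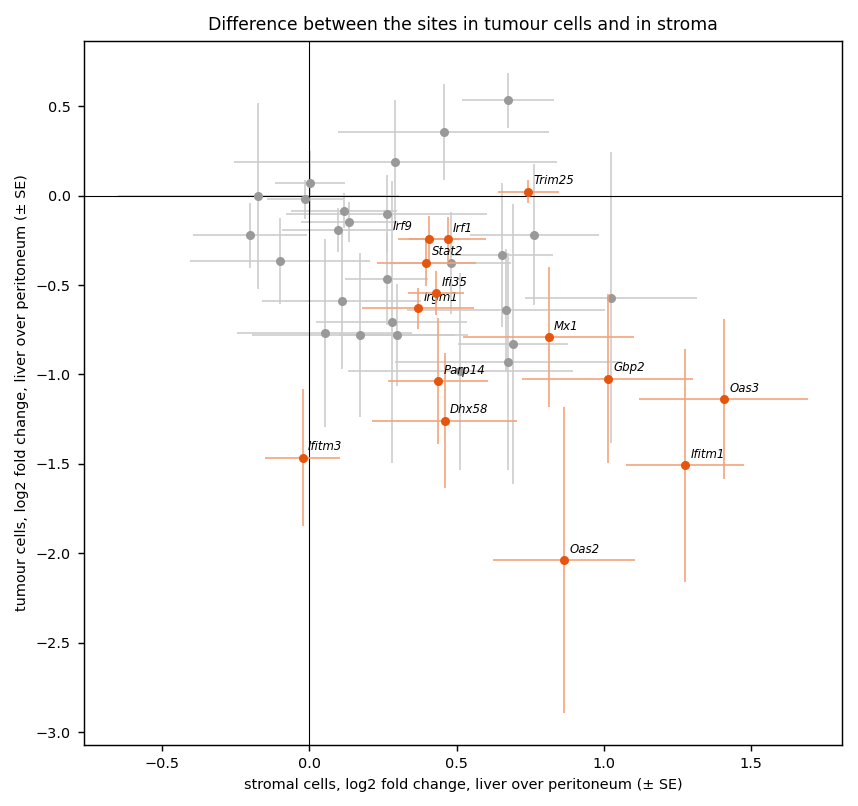
Log2 fold change of liver over peritoneum in stromal cells (horizontal) and in tumour cells (vertical) for the 40 genes tested in both, with SE bars; orange genes passed the test of the difference between the 2 and are named. Most points lie right of and below the zero lines, that is higher in liver stroma and lower in liver tumour cells; Oas1g, which was not tested in tumour cells alone, is not drawn.

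Single libraries held much of the spread within groups. In peritoneal stroma, mouse 1 was the highest library for 40 of 47 genes (85.1%, against 30.6% of all genes), by a median log2 of 0.64 over the mean of the other 3 mice, where all genes had -0.01. In liver stroma, mouse 2 was the highest for 35 of 47 (74.5%, against 27.8% of all genes), by a median log2 of 0.41. Mouse 1 was the highest liver stroma for 3 genes (6.38%, against 22.1% of all genes), so the high liver stroma and the high peritoneal stroma came from different mice. Peritoneal tumour cells of mouse 3 and peritoneal stroma of mouse 3 were the highest for 0 genes of the list, against 25.1% and 24% of all genes. In both peritoneal groups, the labels give mouse 1 lane 1 and the other mice lanes 2 and 3. Mouse and lane thus cannot be told apart there. Liver stroma of mouse 1 and of mouse 2 both came from lane 1.

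**Figure D5:**
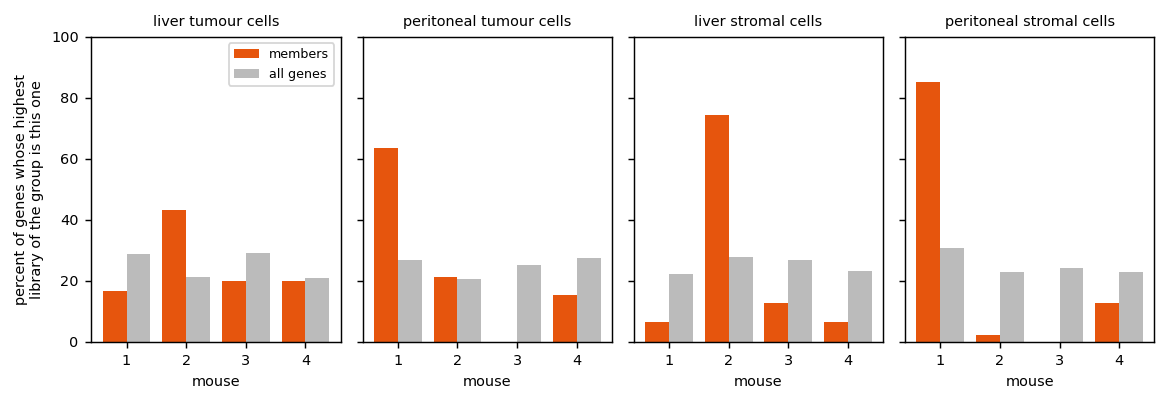
For each group of 4 libraries, the percent of interferon-stimulated genes (orange) and of all genes (grey) with a group mean of at least 1 CPM whose highest library is that of mouse 1, 2, 3 or 4. Peritoneal tumour cells and peritoneal stroma of mouse 1 and liver stroma of mouse 2 hold 63.6%, 85.1% and 74.5% of the listed genes, against 26.9%, 30.6% and 27.8% of all genes.

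The other genes of the pathway were read from lists of 21 ligands, 6 receptor chains, 9 signalling genes and 15 genes of interferon induction. No ligand passed the filter in any comparison. Ifnb1, interferon beta, had 19 counts in the 4 liver stroma libraries, 6 in peritoneal stroma and 0 in all cultures and tumour cells. Ifng, interferon gamma, had 71 counts in liver stroma, 8 in peritoneal stroma, 2 each in RasHIGH and liver tumour cells and 0 elsewhere. No other ligand exceeded 8 counts in any group. Ligand messages were thus barely detectable at this depth, and since interferon messages are short-lived this says nothing of the proteins.

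Receptor chains were present everywhere. Ifnar1 and Ifnar2 had means of 56.0 and 19.6 CPM in BMEL WT, 85.2 and 25.8 in liver tumour cells and 229.6 and 108.2 in liver stroma, and both were called higher in tumour cells than in Ras cultures at both sites (log2 between 0.42 and 0.73). Ifngr1 fell with Ras, from a mean of 132.9 CPM in BMEL WT to 69.4 in RasLOW (log2 -0.97 ± 0.21 SE, edgeR adjusted p = 0.0414) and 53.3 in RasHIGH (log2 -1.36 ± 0.22 SE, edgeR adjusted p = 0.00617). Ifnlr1, the specific chain of the lambda receptor, which is carried mainly by epithelia, was higher in tumour cells than in stroma at both sites (log2 1.38 ± 0.17 and 2.20 ± 0.23 SE), while the other 5 chains were lower. Of all genes, 39.4% in the liver and 37.1% in the peritoneum were called lower in tumour cells than in stroma.

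Socs3, a brake on Stat3 signalling, rose in RasHIGH (log2 1.40 ± 0.19 SE, edgeR adjusted p = 0.00335). Of the receptor chains, RasHIGH against BMEL WT called 1 higher and 2 lower, and of the induction genes 3 each way. Of all genes, 22.6% were called there (10.9% higher and 11.7% lower). Cgas, the sensor of cytosolic DNA, went from a mean of 4.98 CPM in BMEL WT to 1.35 in RasLOW and 0.053, or 4 counts, in RasHIGH (log2 -6.42 ± 0.63 SE, edgeR adjusted p = 0.000977), while Tmem173, its partner Sting, rose from 10.98 to 31.6 CPM (log2 1.48 ± 0.30 SE, edgeR adjusted p = 0.0139). All 9 signalling genes were lower in tumour cells than in stroma at both sites, where 39.4% (liver) and 37.1% (peritoneum) of all genes were called lower. Between liver and peritoneal tumour cells none of the 27 tested genes of the pathway lists was called by edgeR, beside 3.2% of all genes.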

How the data were processed

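Per the paper's methods, RNA of 3 or 4 independent biological samples per group was made into mRNA libraries and aligned to mm9 with TopHat2, while the submitters' processing notes also name Bowtie 0.12.2, mm8 and mm10. The authors deposited raw counts of reads per gene, not normalized; the counting program, strand setting and annotation are not given in the sources used here. No coordinates of the count table were used. Members, lists and named genes were chosen with earlier results of these data known.

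Each comparison was fitted in R 4.3.3 with edgeR 4.0.16 (limma 3.58.1) on the libraries of its groups: filterByExpr (minimum count 10), TMM, quasi-likelihood F-test, Benjamini-Hochberg adjustment over all genes tested, called at an adjusted p under 0.05. CPM used TMM factors over all 25 libraries. Named were called genes with the 6 largest fold changes each way and a mean of at least 1 CPM in the higher group, plus Irf1, Irf7, Irf9, Stat2, Isg15, Ifit1, Usp18, Socs1, Gbp2 and Iigp1. Replicate correlations of log2(CPM + 1) were 0.984 to 0.998, and no libraries were identical. Same-numbered tumour libraries come from the same mouse (mean correlation of their deviations between -0.04 and 0.224). Alternatives were DESeq2 1.42.0, RLE factors, no filter, all libraries in one fit, the study's thresholds, a block, one lane, either Ras group as reference, and leaving out each library. The fits were tested on simulated data with 200 changed genes, drawn from those with a mean of at least 1 CPM. At log2 1, 31 were recovered in RasHIGH against BMEL WT and 165 in liver against peritoneal tumour cells. At log2 2, 178 and 188 were recovered. The culture fit thus missed most changes of log2 1. Genes under 1 CPM, as many of the list are in culture, were not among the changed ones, so recovery is not known for them. Some results of the pathway lists are not reported here.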

Additional observations from a re-analysis of the deposited data

Results flagged for a closer look

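Among the 169 groups of 4 libraries whose highest library reached 1 CPM, 19 held a library that stood apart by Dixon's ratio (above its 95% critical value), where chance gives about 1 in 20 among groups admitted without regard to the library that stands apart. Groups were admitted here by their highest library, and Rsad2, Gbp7 and Iigp1 in peritoneal tumour cells entered through that library alone, so the count is not to be read against that rate. Of them, 6 were peritoneal stroma of mouse 1: Irf7 at 83.9 CPM (other mice 26.1 to 35.4), Usp18 at 14.1 (4.37 to 5.86), Ifit1 at 25.8 (5.23 to 8.39), Mx1 at 10.9 (4.64 to 5.47), Xaf1 at 17.96 (8.07 to 9.28) and Rtp4 at 28.8 (8.49 to 11.7). Another 4 were liver stroma of mouse 2: Ddx58 at 71.6 CPM (46.1 to 50.03), Trim21 at 11.2 (6.98 to 7.69), Cmpk2 at 13.4 (5.99 to 6.80) and Iigp1 at 20.3 (6.83 to 8.45). A further 4 were liver stroma of mouse 3, with Isg15 low at 36.6 CPM (42.6 to 43.4), Oas1a low at 24.5 (32.5 to 33.6), Gbp3 low at 86.2 (152.9 to 165.5) and Ifitm3 high at 340.3 (268.5 to 277.7). Of the rest, 3 were peritoneal tumour cells of mouse 1: Rsad2 at 1.22 CPM (0 to 0.0738), Gbp7 at 4.31 (0.288 to 0.554) and Iigp1 at 1.28 (0.0192 to 0.217). The last were liver tumour cells, with Ifit2 at 4.17 CPM in mouse 1 (2.85 to 2.94) and Ifitm2 at 238.5 in mouse 3 (188.9 to 192.9).

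The site difference in tumour cells less that in stroma, tested by an interaction term in edgeR, differed from 0 for 15 genes. On the log2 scale it was -4.98 for Oas1g, -2.93 for Oas2, -2.87 for Ifitm1, -2.61 for Oas3 and -2.09 for Gbp2. It was -1.77 for Dhx58, -1.66 for Mx1, -1.54 for Parp14, -1.51 for Ifitm3, -1.08 for Irgm1 and -1.06 for Ifi35, and -0.85 for Stat2, -0.80 for Trim25, -0.79 for Irf1 and -0.73 for Irf9. The value of Oas1g rests on 1 count in the 4 liver tumour libraries and depends on the prior count.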

How the results depend on the processing

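No call of a named gene changed direction under any alternative: of 1433 refitted values, 1313 stayed called and 120 lost the call. The numbers of called genes moved by over 1.5 times as follows. RasLOW against BMEL WT (1 called) gave 3 with DESeq2, 2 with no filter, 8 with all libraries in one fit and 0 on lane 4 alone. RasHIGH against BMEL WT (8) gave 14 with all libraries and 1 on lane 4 alone. RasHIGH against RasLOW (0) gave 1 under the study's thresholds, 1 with DESeq2 and 2 with all libraries. Liver against peritoneal tumour cells (2) gave 6 under the study's thresholds and 5 with DESeq2 (1 higher, 4 lower), and liver against peritoneal stroma (16) gave 6 under the study's thresholds and 6 with all libraries. The test of the site differences against each other (15) gave 9 with all libraries. Apart from the study's thresholds, shares of all genes under the alternatives here and below are not given. These counts thus compare settings, and not the list with other genes.

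With a replicate block, RasLOW against BMEL WT gave 0 and RasHIGH against BMEL WT gave 5. Culture numbers are only names, as deviations of same-numbered cultures had mean correlations of -0.132, 0.061 and -0.306. With the mouse as the replicate block, liver against peritoneal tumour cells gave 0, liver against peritoneal stroma 19 and the test between the site differences 19, and no other count moved by over 1.5 times.

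Leaving out 1 library at a time gave 0 to 10 for RasLOW against BMEL WT, 5 to 13 for RasHIGH against BMEL WT (13 without RasHIGH 1; 5 without BMEL WT 1 or RasHIGH 2), 0 to 4 for liver against peritoneal tumour cells, 10 to 28 for liver against peritoneal stroma and 7 to 24 for the site differences. It gave 46 for liver and 42 to 45 for peritoneal tumour cells against stroma, 22 to 29 and 23 to 35 for liver and peritoneal tumour cells against Ras cultures, and 0 for RasHIGH against RasLOW. The causes were not tested. Where both groups lie under about 0.1 CPM, near the level of 3 counts, a difference was not detectable at this depth.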
